A study of Camelus dromedarius with 30 samples.

Results

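Aquaporins are channels that carry water across cell membranes. AQP1, the constitutive channel of the proximal tubule and the descending thin limb, lines both faces of these cells and is also found in the vessels of the descending vasa recta. AQP2 is the regulated channel of the principal cells of the collecting duct: vasopressin, released when the body is short of water, acts through the V2 receptor, cyclic AMP and protein kinase A to move AQP2-bearing vesicles to the apical membrane and to raise transcription of the gene. AQP3, which also passes glycerol, is the exit for water in the basolateral membrane of the same cells.

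The transcripts of these 3 genes were followed in poly(A) RNA-seq of the kidney of 15 dromedaries (Camelus dromedarius), all males aged 4 to 5 years, kept on alfalfa hay. There were 5 control camels with free water, 5 dehydrated camels deprived of water for 20 days, and 5 rehydrated camels that had water again for 3 days after 20 days without it. Cortex and medulla of each kidney were sequenced separately, which gave 30 libraries in 6 groups of 5; food was offered freely throughout. Samples were taken at an abattoir within an hour of death, and each library represents 1 camel and not a pool.

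The 3 genes are 3 of the 22444 in the count table, chosen as the rows that the study's gene lists or text pair with these symbols, and all 3 were among the 15376 genes with enough counts to be tested. AQP1 (ENSCDRG00005002776) lies at chr7:45061823-45075076 on the plus strand of the CamDro2 assembly, with 4 exons of 390, 165, 81 and 2079 bases. AQP2 (ENSCDRG00005005216) lies at chr12:11732224-11737545 on the minus strand, with 4 exons of 482, 165, 81 and 754 bases. AQP3 (ENSCDRG00005020520) lies on the plus strand of a scaffold without a chromosome number, from 8303055 to 8308159, with 1025 bases of exon in 7 pieces. The AQP1 row has its symbol from the text alone, and its inner exons have the same lengths as those of AQP2. No other annotated gene overlaps the span of any of the 3.

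Total counts per library ran from 12634346 to 20005136, and the mean Spearman rho of a library with the other 4 of its group ran from 0.932 to 0.984. Counts were expressed as CPM, the share of a library after TMM scaling. A gene is said to be called where edgeR's quasi-likelihood test, Benjamini-Hochberg adjusted over all tested genes, gave a p-value below 0.05. In comparisons of conditions within a tissue the groups are separate camels. The spread behind every edgeR p-value was estimated from all 30 libraries together, so it is not that of the compared camels alone. In every comparison, also those between tissues and the interactions, cortex and medulla of a camel entered as separate libraries. Their pairing was used only where a block of the camel is named. The tissue labels were checked on markers with a symbol. All 8 such proximal tubule genes were called lower in medulla than in cortex in control camels, beside 60.9% of all tested genes called in either direction. UMOD, the defining product of the thick ascending limb, was higher in medulla (log2 fold change 2.21, adjusted p = 1.81e-08, edgeR). Against the labels, SYNPO, a podocyte gene of the cortical glomeruli and the only one of its list with a symbol, was also higher in medulla in control camels, at 9.22 against 2.09 CPM (log2 fold change 2.11, adjusted p = 0.000241), and likewise in dehydrated and rehydrated camels (2.15 and 2.31). CLDN10, a claudin of the thick ascending limb, was lower in medulla (-0.71, adjusted p = 0.000381). The symbols come largely from lists of genes that were called changed in these samples, so counts over named genes are not independent evidence of a direction.

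AQP1 was among the most abundant transcripts of the kidney, AQP2 was intermediate and AQP3 was scarce in the cortex. Per kilobase of exon, control cortex held 1270 ± 264 CPM of AQP1 (SD, n = 5), 134 ± 28.0 of AQP2 and 7.41 ± 1.396 of AQP3. In control medulla the levels per kilobase were 1718 ± 442 for AQP1, 193 ± 59.2 for AQP2 and 64.8 ± 46.0 for AQP3 (SD, n = 5). AQP1 ranked between 4 and 35 by CPM in its library, whereas AQP3 ranked between 7394 and 12487 in the cortex of rehydrated camels. These levels rest on the annotated exon lengths of 2715, 1482 and 1025 bases, and reads in an untranslated region outside the AQP3 model would not have been counted.

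**Figure D1:**
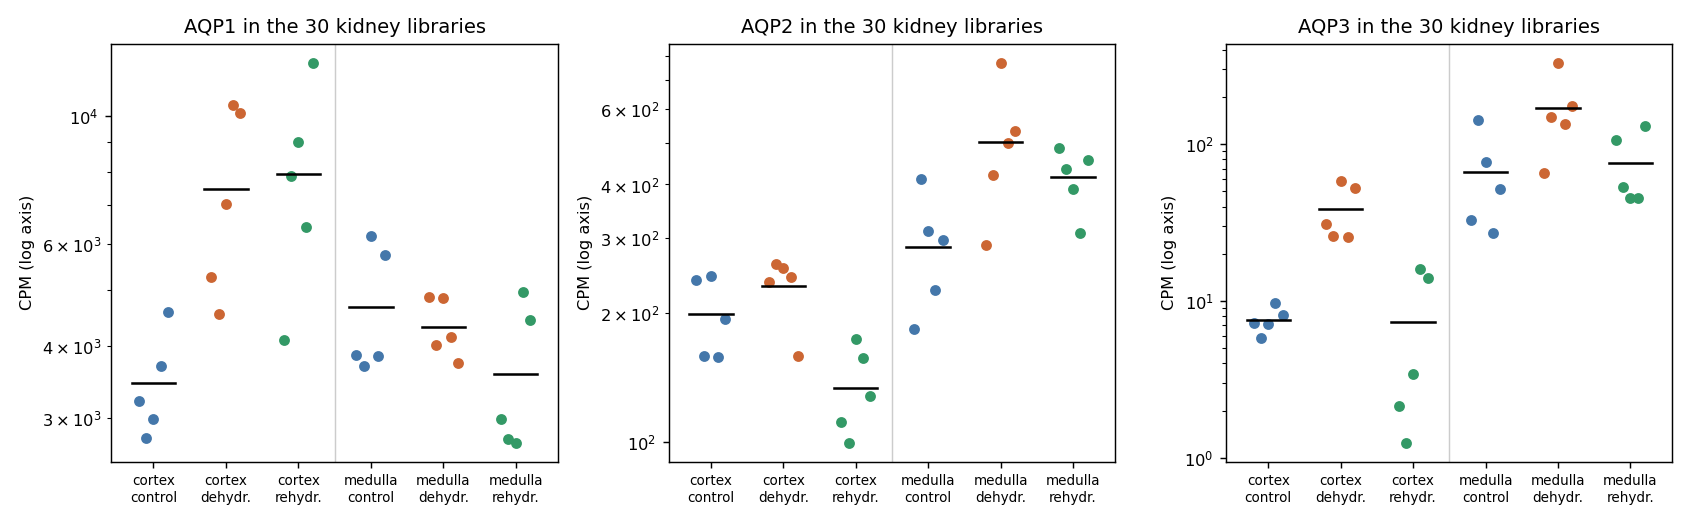
CPM of AQP1, AQP2 and AQP3 (log axes) in each of the 30 libraries by tissue and condition, with a bar at the mean of each group of 5. AQP3 in the cortex of dehydrated camels lies between 25.8 and 58.2 CPM, above every control and rehydrated cortex library, and AQP1 in rehydrated cortex reaches 12335 CPM.

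The first question was how each channel differed between conditions within the cortex. AQP1 and AQP3 transcripts were higher in dehydrated than in control camels, 2.17-fold and 5.13-fold, and no difference was detectable in AQP2. AQP3 was lower again in rehydrated camels, AQP1 stood as high there as in dehydrated ones, and AQP2 had its lowest levels there. In bulk tissue, fewer cells of a type and less RNA per cell cannot be told apart.

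AQP3 differed most between conditions. In control cortex it measured 7.23, 5.82, 7.096, 9.68 and 8.16 CPM. In dehydrated cortex it measured 30.9, 25.8, 58.2, 25.8 and 52.8 CPM, and no library overlapped a control library. The log2 fold change of dehydration against control was 2.36 (SE 0.55, adjusted p = 0.0166, edgeR), a 5.13-fold difference with a 95% interval of 1.24 to 3.48 on the log2 scale. AQP3 and AQP1 were among the 196 genes called higher in this comparison, 1.27% of those tested, and the groups failed to overlap for 5.53% of tested genes. The call was lost without dehydrated camel 3, the highest library (adjusted p = 0.0523, edgeR), and with limma-voom (adjusted p = 0.0702).

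In rehydrated cortex AQP3 measured 2.14, 1.25, 3.42, 16.1 and 14.0 CPM. These values fell into a low set of 3 camels, below every control library, and a pair above every control library, so the group spanned 12.9-fold. Behind the low values were 28, 16 and 39 reads, for which counting error alone is 18.9%, 25.0% and 16.0%. Against dehydrated camels the group was lower without overlap, by 2.38 on the log2 scale (SE 0.54, adjusted p = 0.0169, edgeR), where 1.24% of the tested genes were called lower and the groups of 4.36% did not overlap. Against control camels the log2 fold change was -0.02 with a 95% interval of -1.18 to 1.15 (adjusted p = 1.00, edgeR), an interval too wide to show whether the level returned to that of watered animals.

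AQP1 measured 3214, 2773, 2987, 3696 and 4577 CPM in control cortex and 5258, 4538, 7024, 10436 and 10099 CPM in dehydrated cortex. The lowest dehydrated library lay just under the highest control library, and the others lay above. The log2 fold change was 1.11 (SE 0.27, 95% interval 0.56 to 1.67, adjusted p = 0.0220, edgeR), a 2.17-fold difference. In single libraries AQP1 took between 0.240% and 0.338% of all counts in control cortex and between 0.371% and 0.883% in dehydrated cortex. The adjusted p-value from edgeR passed 0.05 without control camel 1 (0.0538), control camel 2 (0.0669), dehydrated camel 4 (0.0635) or dehydrated camel 5 (0.0737), and it was 0.0898 with the RNA integrity number of each library as a covariate.

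In rehydrated cortex AQP1 measured 4100, 7854, 9006, 6413 and 12335 CPM. Of these 5 camels, 4 exceeded every control camel, and the log2 fold change against control was 1.20 (SE 0.27, 95% interval 0.65 to 1.76). This difference was as large as that of dehydration, with an unadjusted p-value of 0.000129 against 0.000307 (edgeR's quasi-likelihood test), but its adjusted p-value was 0.0766. Only 13 genes (0.0845% of those tested) passed in this comparison. AQP1 passed with DESeq2 (adjusted p = 0.00312) and in edgeR without rehydrated camel 1 (adjusted p = 0.0201). In edgeR the adjusted p was 0.372 with the RNA integrity number as a covariate and 0.168 with only cortex libraries. Between rehydrated and dehydrated camels AQP1 differed by 0.09 on the log2 scale (SE 0.27, 95% interval -0.46 to 0.64, adjusted p = 0.923, edgeR).

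AQP2 measured 239, 159, 244, 158 and 194 CPM in control cortex and 237, 261, 255, 243 and 159 CPM in dehydrated cortex. The ranges overlapped throughout, and the log2 fold change was 0.22 (SE 0.22, 95% interval -0.24 to 0.67, adjusted p = 0.745, edgeR). In rehydrated cortex AQP2 measured 112, 99.7, 174, 157 and 128 CPM, with 4 camels under every control and dehydrated library. Against dehydrated camels the log2 fold change was -0.79 (SE 0.22, adjusted p = 0.0572, edgeR), which passed with DESeq2 (adjusted p = 0.0312) and in edgeR without dehydrated camel 5 (0.0415) or rehydrated camel 3 (0.0499). Against control camels it was -0.57 (SE 0.22, adjusted p = 0.426, edgeR). These 3 cortex comparisons share their groups of libraries, so a low or high group enters a pair of them.

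**Figure D2:**
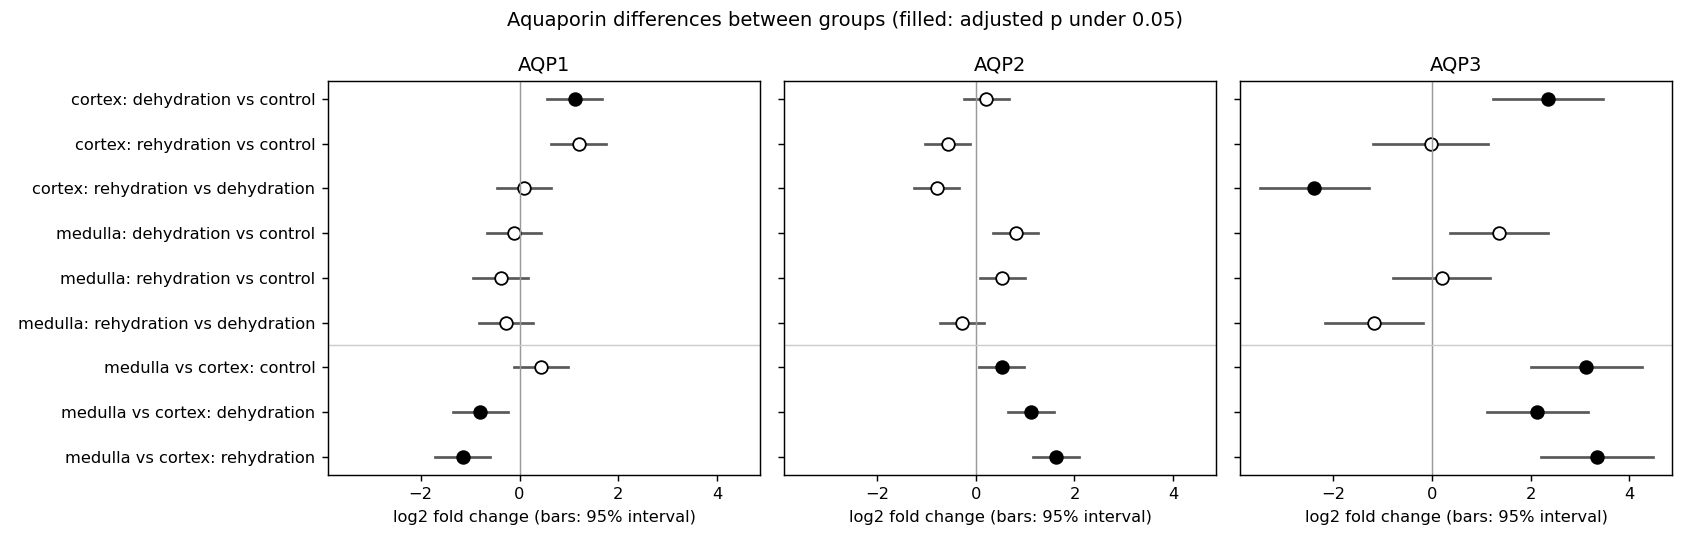
Log2 fold changes of the 3 aquaporins for 6 comparisons of conditions within a tissue and 3 of medulla against cortex, from 1 edgeR fit of all libraries, with 95% intervals; filled points passed an adjusted p of 0.05. In the cortex AQP3 stands at 2.36 for dehydration and at -2.38 for rehydration against dehydration, whereas AQP1 stands at 1.11 and 1.20 in the comparisons with control.

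The same comparisons were made in the medulla, where the collecting ducts meet the most concentrated interstitium. None of the 3 aquaporins passed the threshold in any of the 3 comparisons (edgeR, Benjamini-Hochberg adjusted). AQP2 and AQP3 measured highest in dehydrated camels, and AQP1 in control camels.

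AQP2 measured 184, 413, 311, 227 and 297 CPM in control medulla and 288, 420, 769, 500 and 534 CPM in dehydrated medulla. Of the dehydrated camels, 4 lay above every control camel, and the log2 fold change was 0.81 (SE 0.22, 95% interval 0.36 to 1.27, adjusted p = 0.0555, edgeR). It passed with DESeq2 (adjusted p = 0.0261), and in edgeR without control camel 2 (0.0202) or dehydrated camel 1 (0.0166), which are the libraries nearest to the other group. It did not pass with limma-voom (adjusted p = 0.0758), or in edgeR with the RNA integrity covariate (0.0688) or only medulla libraries (0.143). In rehydrated medulla AQP2 measured 487, 434, 391, 309 and 456 CPM, within the dehydrated range, with a log2 fold change against control of 0.54 (SE 0.22, adjusted p = 0.234, edgeR) and against dehydration of -0.27 (SE 0.22, adjusted p = 0.532, edgeR).

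AQP3 measured 32.9, 143, 77.5, 27.0 and 51.5 CPM in control medulla and 66.1, 149, 330, 134 and 176 CPM in dehydrated medulla. The groups overlapped, and the spread within each was about 5-fold (5.29-fold and 5.00-fold from the lowest to the highest camel). The log2 fold change was 1.37 (SE 0.49, 95% interval 0.37 to 2.36, adjusted p = 0.174, edgeR). In rehydrated medulla AQP3 measured 106, 53.6, 45.2, 45.2 and 130 CPM, with a log2 fold change against dehydration of -1.17 (SE 0.48, adjusted p = 0.166, edgeR) and against control of 0.20 (SE 0.48, adjusted p = 0.914, edgeR).

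AQP1 measured 3852, 3694, 6185, 3848 and 5748 CPM in control medulla and 4850, 4015, 4833, 4148 and 3739 CPM in dehydrated medulla. In rehydrated medulla it measured 2986, 2763, 2720, 4961 and 4438 CPM. All 3 groups overlapped, and the log2 fold changes were -0.11 (SE 0.27) for dehydration against control, -0.38 (SE 0.27) for rehydration against control and -0.27 (SE 0.27) for rehydration against dehydration, with adjusted p-values of 0.905, 0.554 and 0.632 (edgeR).

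At an unadjusted p-value under 0.05, 2 of the 3 aquaporins (AQP2 and AQP3) differed in medulla between dehydration and control, 1 (AQP2) between rehydration and control and 1 (AQP3) between rehydration and dehydration. DESeq2 called 1, 0 and 0 of them in these comparisons and limma-voom called none. Over all tested genes, the shares with an unadjusted p-value under 0.05 were 13.4%, 14.7% and 20%, and the shares called by edgeR were 1.68%, 0.813% and 3.67%.

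A difference that passed in 1 tissue alone is not thereby a difference between tissues, so the interactions were tested. No aquaporin passed after adjustment in edgeR, and neither did any with DESeq2 or limma-voom. The dehydration response of AQP1 was lower in medulla than in cortex by 1.23 on the log2 scale (SE 0.38, unadjusted p = 0.00319, adjusted p = 0.315, edgeR), and its rehydration response by 1.59 (log2 difference -1.59, SE 0.38, unadjusted p = 0.000266, adjusted p = 0.878). For AQP2 the rehydration response was higher in medulla by 1.11 on the log2 scale (SE 0.31, unadjusted p = 0.00146, adjusted p = 0.878, edgeR). For AQP3 the dehydration responses differed by -0.99 (SE 0.72, adjusted p = 0.799, edgeR), with a 95% interval of -2.46 to 0.48. Counted over the 3 members, 1, 2 and 0 had an unadjusted p-value under 0.05 for the dehydration response, the rehydration response and the step from dehydration to rehydration, beside 7.56%, 5.07% and 9.4% of all tested genes. The tested genes called by edgeR after adjustment were 0.0455%, 0% and 0.0195%.

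Medulla was then set against cortex within each condition. AQP3 was higher in medulla in all 3 conditions and AQP2 likewise, whereas AQP1 moved from no detectable difference in control camels to a lower level in medulla in dehydrated and rehydrated ones. Such differences were common: 60.9% of tested genes were called between tissues in control camels, 65.4% in dehydrated and 61.1% in rehydrated camels.

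AQP3 was 8.76-fold higher in medulla than in cortex in control camels (log2 fold change 3.13, SE 0.55, adjusted p = 2.83e-05, edgeR). It was 4.40-fold higher in dehydrated camels (log2 2.14, SE 0.50, adjusted p = 0.000573) and 10.2-fold higher in rehydrated camels (log2 3.35, SE 0.55, adjusted p = 1.02e-05). The tissues did not overlap in any condition, as was true of 42.9%, 54.8% and 30.3% of tested genes in control, dehydrated and rehydrated camels.

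AQP2 was 1.44-fold higher in medulla in control camels, with overlapping libraries (log2 fold change 0.53, SE 0.22, adjusted p = 0.0421, edgeR). This call was lost with the camel as a block, which pairs the tissues of an animal (adjusted p = 0.0865), and with limma-voom (0.0549). In edgeR it was also lost without control cortex of camel 2 (0.0967), camel 4 (0.102) or camel 5 (0.0694), and without control medulla of camel 2 (0.174), camel 3 (0.0876) or camel 5 (0.0668). In dehydrated camels AQP2 was 2.17-fold higher in medulla (log2 1.12, SE 0.22, adjusted p = 0.000102) and in rehydrated camels 3.10-fold higher (log2 1.63, SE 0.23, adjusted p = 9.55e-07), without overlap in either.

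AQP1 in control camels differed by 0.44 on the log2 scale (SE 0.27, 95% interval -0.11 to 0.99, adjusted p = 0.161, edgeR). In dehydrated camels it was lower in medulla by 0.79 (log2 fold change -0.79, SE 0.27, adjusted p = 0.0120) and in rehydrated camels by 1.15 (log2 fold change -1.15, SE 0.27, adjusted p = 0.000696), with overlapping libraries in both. With the RNA integrity number as a covariate the dehydrated difference did not pass (log2 fold change -0.56, adjusted p = 0.220), and the rehydrated one did (adjusted p = 0.0484).

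Ordered by mean CPM over the 6 groups, AQP2 and AQP3 came in the same sequence. It ran dehydrated medulla (502 and 171 CPM for AQP2 and AQP3), rehydrated medulla (415 and 76.1), control medulla (286 and 66.4), dehydrated cortex (231 and 38.7), control cortex (199 and 7.60) and rehydrated cortex (134 and 7.38). AQP1 began with rehydrated cortex (7942 CPM) and dehydrated cortex (7471), followed by control medulla (4665), dehydrated medulla (4317), rehydrated medulla (3574) and control cortex (3449). Of the 15 pairs of neighbours in these orders, none differed after adjustment (exact two-sided permutation tests of 5 against 5 libraries). The lowest adjusted p was 0.119, for AQP3 in dehydrated above control cortex, whose exact p of 0.00794 is the smallest that this design allows. A single pair at this exact p could not pass over 15 pairs, and the pairs were chosen by sorting on the same values. These tests therefore cannot decide whether neighbouring groups differ. The exact p was under 0.05 for 3 further pairs: dehydrated above rehydrated medulla for AQP3 (0.0476), rehydrated above control medulla for AQP2 (0.0476) and control above rehydrated cortex for AQP2 (0.0317).

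Ratios between channels within a library do not depend on how libraries are scaled. Per base of exon, AQP2 exceeded AQP3 18.0-fold in control cortex (geometric mean of 5 libraries, range 11.3 to 23.8), 4.33-fold in dehydrated cortex (2.09 to 6.99) and 19.7-fold in rehydrated cortex (6.33 to 55.2). In the medulla the ratio was 3.46 in control camels (2.00 to 5.81), 2.20 in dehydrated camels (1.61 to 3.02) and 4.14 in rehydrated camels (2.42 to 5.98). The basolateral channel thus had its highest share relative to AQP2 in dehydrated camels in both tissues. On the log2 scale the ratio was 2.06 lower in dehydrated than in control cortex without overlap (difference -2.06, exact permutation p = 0.00794, adjusted over 18 comparisons 0.0714), and 0.65 lower in dehydrated than in control medulla (difference -0.65, exact p = 0.0714, adjusted 0.110).

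AQP1 exceeded AQP2 9.48-fold in control cortex (6.68 to 12.9), 17.0-fold in dehydrated cortex (9.49 to 34.6) and 30.99-fold in rehydrated cortex (20.1 to 52.6). The rehydrated camels lay above the control camels without overlap (log2 difference 1.71, exact permutation p = 0.00794, adjusted 0.0714). In the medulla the same ratio went the other way, from 9.01 in control camels (4.88 to 11.4) to 4.91 in dehydrated camels (3.43 to 9.18) and 4.60 in rehydrated camels (3.34 to 8.78), with log2 differences against control of -0.88 and -0.97 (exact permutation p = 0.0317 for each, adjusted 0.0714). AQP1 over AQP3 ran from 10.8 (geometric mean in dehydrated medulla) to 612 (rehydrated cortex). None of the 18 comparisons passed after adjustment in these exact permutation tests, and 10 had an exact p under 0.05. A single comparison at the smallest possible exact p, 0.00794, could not pass over 18 comparisons. The lack of a pass therefore does not show that the ratios were alike. Leaving out 1 library brought the adjusted p under 0.05 for AQP2 over AQP3 in dehydrated against control cortex (0.0476 without dehydrated camel 4), for AQP1 over AQP2 in rehydrated against control cortex (0.0357 without rehydrated camel 4) and for AQP1 over AQP2 in medulla against control (0.0408 for both groups without control camel 2).

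**Figure D3:**
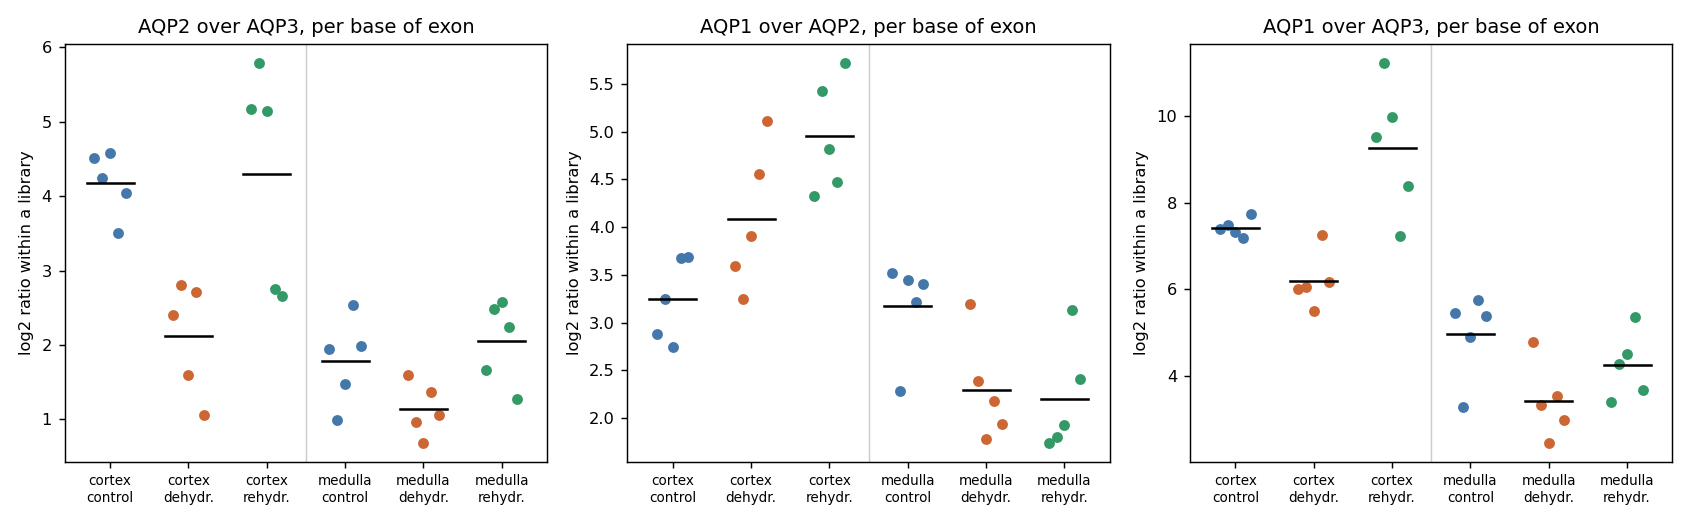
Log2 ratios of 2 aquaporins per base of exon within each library, by group, with a bar at the group mean. AQP2 over AQP3 is lowest in dehydrated camels in both tissues (group means 2.12 and 1.14), and AQP1 over AQP2 goes up from control to rehydrated camels in cortex and down in medulla.

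AQP2 and AQP3 also varied together between camels in the medulla. Over the 15 medulla libraries, Pearson's r of their log2 CPM was 0.87 (permutation p = 5e-05, adjusted over 6 relations 0.0003) and Spearman's rho was 0.83 (permutation p = 0.00025, adjusted 0.0015). Without the 2 libraries farthest from the median of AQP2, r was 0.80 (permutation p = 0.00168, adjusted 0.0101). After the mean of each condition was subtracted r was 0.89, and within control, dehydrated and rehydrated camels it was 0.92, 0.97 and 0.75 (5 libraries each, given as a description). The library of dehydrated camel 3 had the highest level of both, 769 CPM of AQP2 and 330 CPM of AQP3. The 8 proximal tubule markers with a symbol were summed in the same libraries. In control camels 1 to 5 the sum was 831, 220, 637, 1538 and 1239 CPM. In dehydrated camels it was 749, 733, 202, 393 and 530 CPM, and in rehydrated camels 421, 693, 547, 1004 and 729 CPM. The part of these markers in the relation of AQP2 and AQP3 was not tested.

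In the cortex r of AQP2 and AQP3 was 0.62 (permutation p = 0.0148, adjusted 0.0444) and rho was 0.51 (permutation p = 0.0526, adjusted 0.158). Without the 2 libraries farthest from the median of AQP2, those of rehydrated camels 1 and 2, r was 0.27 (permutation p = 0.368), so the pooled relation rests on these 2 libraries. Separately, the dehydrated camels formed a cluster of their own in AQP3, and with the condition means subtracted r was 0.23. AQP1 showed no such relation: its r with AQP2 was -0.23 in cortex and -0.18 in medulla, and with AQP3 it was 0.28 and 0.11 (adjusted permutation p between 0.616 and 0.699).

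**Figure D4:**
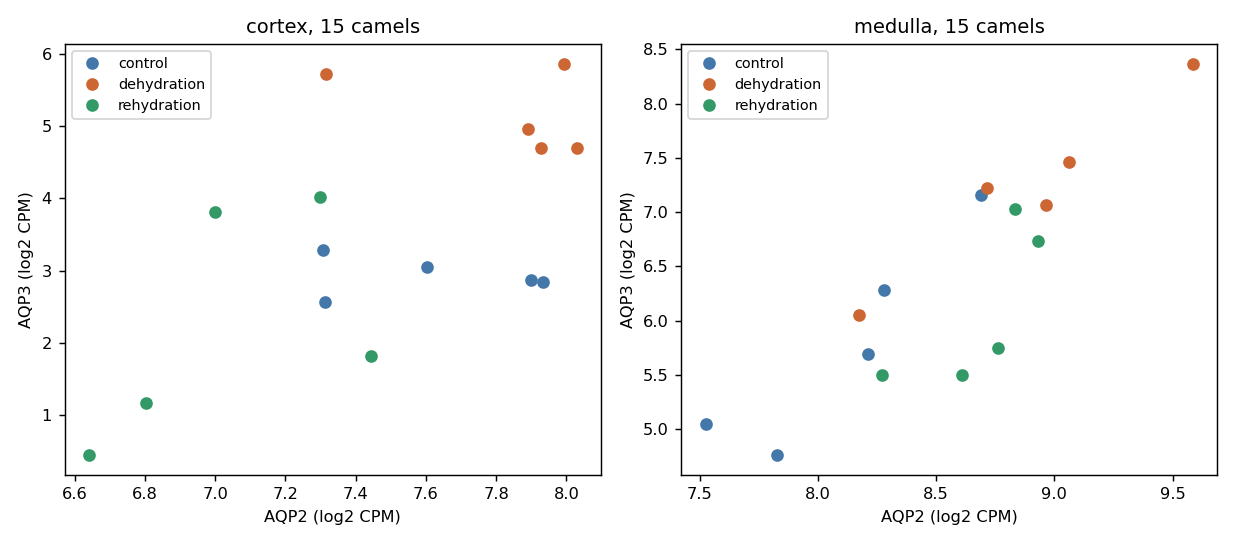
Log2 CPM of AQP3 against AQP2 in the 15 cortex and 15 medulla libraries, coloured by condition. In the medulla the points of all 3 conditions run along a shared line (r = 0.87), and in the cortex the dehydrated camels stand above the rest.

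The genes whose log2 CPM followed each aquaporin most closely were sought among 3559 named genes whose CPM averaged 1 or more. Over all 30 libraries AQP3 was followed most closely by LZTS3 (r = 0.91), PDE2A (0.90), SLC6A12 (0.90), PIP4K2B (0.90) and PADI2 (0.89). PDE2A is a phosphodiesterase that breaks down cyclic nucleotides, and SLC6A12 is the betaine carrier BGT1 that medullary cells use against hypertonicity. AQP2 was followed by SLC4A11 (r = 0.87), a membrane transporter of the bicarbonate carrier family, AQP3 (0.87), NUPR1 (0.85), CELSR2 (0.85) and SLC6A12 (0.85). These r values across both tissues carry the tissue difference: SLC6A12, for example, averaged 0.623, 1.87 and 0.420 CPM in control, dehydrated and rehydrated cortex and 17.2, 33.5 and 28.0 CPM in medulla.

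Within the medulla alone, AQP2 was followed by GCN1 (r = 0.87 over 15 libraries), AQP3 (0.87) and LRRFIP1 (0.84), and AQP3 by AQP2 (0.87), SLC4A11 (0.86) and LRRFIP1 (0.85). SLC4A11 averaged 22.6, 52.6 and 22.1 CPM in control, dehydrated and rehydrated medulla. Within the cortex the nearest genes to AQP3 were BAP1, ATG2A and FAM89B (r = 0.90 for each), and to AQP2 FAM149A (0.84), MYL4 (0.83) and AP1G2 (0.80).

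AQP1 had other neighbours. Within the cortex these were PC (r = 0.89), KCNMB4 (0.85) and NFKB2 (0.82). PC, the pyruvate carboxylase that feeds gluconeogenesis, averaged 646 CPM in control, 1507 in dehydrated and 1503 in rehydrated cortex, and KCNMB4, a subunit of the large-conductance potassium channel, averaged 7.61, 19.4 and 23.4 CPM. Over all 30 libraries the nearest were KCNMB4 (0.74), PCDH8 (0.74), RNF175 (0.69), GRAMD2A (0.69) and CILP2 (0.68), and within the medulla SPAG8 (0.81), GC (0.76) and SERPINA6 (0.76). SERPINA6 was scarce, at 2.47, 1.56 and 0.756 CPM on average in control, dehydrated and rehydrated medulla. The median r over the genes compared lay between -0.09 and 0.07 for each aquaporin and set of libraries. The genes named were picked as the highest of 3559, so this median does not measure how far they stand out. Their r values were not tested.

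Transcripts of marker genes of the cells that carry these channels were summed in each library. Such a sum does not measure the number of cells. Of 16 listed proximal tubule markers, 8 had a symbol, and their summed level in cortex was 3690 to 7521 CPM in control, 1622 to 2815 in dehydrated and 4698 to 7061 in rehydrated camels. Dehydrated cortex, in which AQP1 was higher, thus held less of the proximal tubule list without overlap, with SLC17A3 and SLC13A1 called lower (log2 fold changes -2.63 and -1.80, adjusted p = 0.00445 and 0.0193, edgeR) and a median over the 8 genes of -1.63 against 0.00 for all tested genes. Of all tested genes 2.45% were called in either direction in this comparison, and the groups of 5.53% did not overlap. Rehydrated cortex, in which AQP1 was as high, held the list at its control range. In the medulla the sum was 220 to 1538 CPM in control, 202 to 749 in dehydrated and 421 to 1004 in rehydrated camels. There too the list was lower in dehydrated than in control camels, with a median log2 fold change of -1.45 against 0.01 for all tested genes. Of the 8 genes, 2 were called lower (edgeR), beside 1.68% of all tested genes called in either direction. None of the 8 was at 0 in a whole group, and their part in the AQP1 result was not tested.

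Of 8 listed principal cell markers only HSD11B2, the enzyme that shields the mineralocorticoid receptor from cortisol, and TFCP2L1, a transcription factor of the distal nephron, had a symbol. Their summed level in cortex was 395 to 573 CPM in control, 249 to 384 in dehydrated and 389 to 464 in rehydrated camels. In medulla it was 114 to 207, 54.0 to 96.9 and 103 to 314 CPM. The sum in dehydrated camels lay below that of control camels without overlap in both tissues, and nearly all of it was HSD11B2. HSD11B2 was called lower in dehydrated medulla (log2 fold change -1.07, adjusted p = 0.0155, edgeR) and had -0.63 in cortex (adjusted p = 0.175). TFCP2L1 averaged 6.55 CPM in control and 6.30 in dehydrated medulla (log2 fold change -0.06, adjusted p = 0.974) and 1.39 and 0.714 CPM in cortex (-0.94, adjusted p = 0.731). Neither marker was at 0 in a whole group, and their part in the AQP2 and AQP3 values was not tested.

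**Figure D5:**
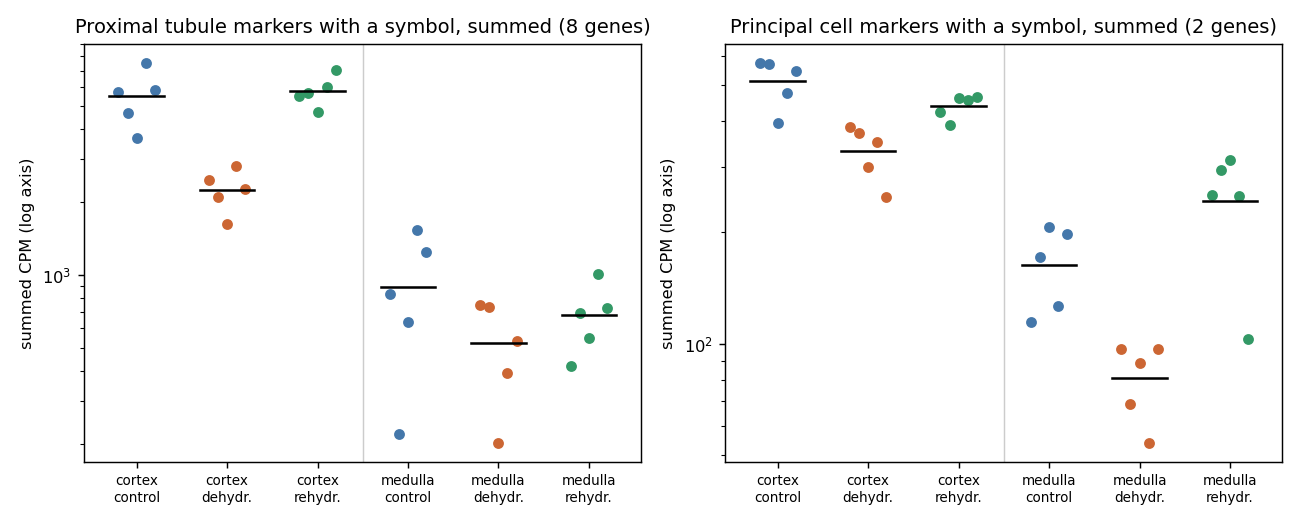
Summed CPM (log axes) of the 8 proximal tubule and 2 principal cell markers that had a symbol, for each library by group, with a bar at the mean. In both tissues the principal cell sum, nearly all of it HSD11B2, is lowest in dehydrated camels, and the proximal tubule sum in dehydrated cortex, 1622 to 2815 CPM, lies under every control and rehydrated cortex library.

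Endothelial markers (6 of 10 with a symbol), a further site of AQP1, summed to 347 to 423 CPM in control, 521 to 681 in dehydrated and 320.0 to 452 in rehydrated cortex. PECAM1, an endothelial junction protein, was called higher in dehydrated cortex (log2 fold change 0.74, adjusted p = 0.00431, edgeR) and lower again in rehydrated cortex (-0.78, adjusted p = 0.00345). It was the only 1 of the 6 called in either comparison, beside 2.45% and 2.32% of all tested genes called in either direction. CLDN5, of the same list, did not follow it. Its log2 fold changes were 0.05 for dehydration against control and 1.63 for rehydration against dehydration (adjusted p = 0.989 and 0.110, edgeR). In control, dehydrated and rehydrated medulla the endothelial sum was 640 to 769, 641 to 1063 and 568 to 965 CPM. CLDN5 was called higher in rehydrated than in dehydrated medulla (log2 fold change 2.04, adjusted p = 0.0184, edgeR). No endothelial marker was at 0 in a group, and their part in the AQP1 values was not tested.

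The markers of other tubule cells did not all go one way. The thick ascending limb pair (2 of 6 markers, UMOD included) summed to 3346 to 4964 CPM in control and 5068 to 7748 in dehydrated cortex, without overlap, and to 14543 to 20225 and 10881 to 18780 CPM in medulla. Most of this sum was UMOD, with a log2 fold change in cortex of 0.73 (adjusted p = 0.0843, edgeR), while CLDN10 had -0.39 (adjusted p = 0.213). The 4 intercalated cell markers of 9, which mark the neighbours of the principal cells, summed to 1266 to 1619 CPM in control and 842 to 1215 in dehydrated cortex, without overlap, and ATP6V1B1, a proton pump subunit, was called lower in dehydrated medulla (log2 fold change -0.82, adjusted p = 0.00427, edgeR). The summed levels of the erythroid (6 of 9), podocyte (1 of 5), fibroblast (3 of 7) and immune (1 of 7) markers overlapped between control and dehydrated camels in both tissues. None of the urothelium markers had a symbol, and the part of these lists in the aquaporin values was not tested.

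The pathway that acts on AQP2 was read from 3 lists with 43 genes that had a symbol and were tested: vasopressin signalling (15 of 36), vesicle trafficking (16 of 38) and the urine-concentrating transport and osmolyte genes (12 of 27). The V2 receptor AVPR2 and the other water channels had no symbol and were not analysed here. In dehydrated against control cortex 4 of the 43 were called higher and 0 lower, beside 2.45% of all tested genes in either direction. DESeq2 called 9 and the RNA integrity covariate left 2. The count was 1 without control camel 1, control camel 2, dehydrated camel 2 or dehydrated camel 3, and 2 without control camels 4 or 5 or dehydrated camels 4 or 5.

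In vasopressin signalling 3 of 15 were called higher in dehydrated cortex. ITPR3, a calcium release channel of the endoplasmic reticulum, went from 4.78 to 11.5 CPM (log2 fold change 1.28, SE 0.24, adjusted p = 0.00269, edgeR). PDE2A went from 24.6 to 41.1 CPM (0.75, SE 0.19, adjusted p = 0.0262), and PLCG1, a phospholipase, from 85.1 to 115 CPM (0.43, SE 0.11, adjusted p = 0.0223). The median over the list was -0.01, against 0.00 for all tested genes. Of the urine-concentrating list, SLC6A6, the taurine carrier, was higher (40.4 to 80.4 CPM, log2 fold change 1.00, adjusted p = 0.0441), with a list median of 0.28. This call, the only one of its list, was lost with RLE scaling, with the RNA integrity covariate, with the replicate block and in 9 of 10 fits that left out 1 library (each control or dehydrated camel but control camel 3). Of the trafficking list 0 of 16 were called by edgeR, DESeq2 or limma-voom, 0 had an unadjusted p-value under 0.05 (14.7% of all tested genes did), and the median was -0.07. Such a p-value (edgeR) was held by 6 of 15 in vasopressin signalling and 7 of 12 in the urine-concentrating list, 13 of the 43 together. The symbols favour genes that the study called changed, so these counts are not read against that share.

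Between rehydrated and dehydrated cortex 2 of the 43 were called higher and 2 lower, beside 2.32% of all tested genes in either direction. PDE2A fell from 41.1 to 20.8 CPM (log2 fold change -0.99, SE 0.19, adjusted p = 0.00453, edgeR), the same turn as AQP3. PDE1B, another phosphodiesterase, rose from 12.2 to 21.1 CPM (0.80, adjusted p = 0.0490) and PRKAR2A, a regulatory subunit of protein kinase A, from 76.3 to 128 CPM (0.75, adjusted p = 0.0492). STUB1, a ubiquitin ligase, fell from 192 to 139 CPM (-0.47, adjusted p = 0.0264). The count of 4 was 7 with DESeq2 and 2 when only cortex libraries were fitted. It was 1 without dehydrated camels 3 or 4 or rehydrated camels 2 or 4, and 2 without dehydrated camels 1, 2 or 5.

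In dehydrated against control medulla 1 of the 43 was called: SCNN1A, the alpha subunit of the epithelial sodium channel of principal cells, was lower (462 to 249 CPM, log2 fold change -0.89, SE 0.21, adjusted p = 0.0227, edgeR), while 10 had an unadjusted p-value under 0.05. Over all tested genes 1.68% were called and 13.4% had such a p-value, so 1 of 43 is near the background. Between rehydrated and dehydrated medulla ATP1B3, a sodium pump subunit, was lower (186 to 117 CPM, -0.66, SE 0.15, adjusted p = 0.0148), the only one of the 43 beside 3.67% of all tested genes. Rehydration against control called 0 of the 43 in cortex (5 at an unadjusted p-value under 0.05, 2 by DESeq2, 0 by limma-voom) and 0 in medulla (9, 1 and 0) with edgeR, beside 0.0845% and 0.813% of all tested genes called and 8.28% and 14.7% at an unadjusted p-value under 0.05. In dehydrated medulla the SCNN1A call was absent without control camels 3 or 5 or dehydrated camels 2 or 4, and a count of 2 was reached without control camel 4 or dehydrated camel 5. For rehydration against control in medulla the count was 2 without control camel 2 or rehydrated camel 4 and 1 without rehydrated camel 2. The ATP1B3 call was absent without rehydrated camel 1, and the count was 2 without rehydrated camels 2 or 4.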

How the data were processed

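Read counts per gene were deposited by the authors as 1 table of 22444 genes and 30 libraries. Per the file headers and the study's methods they come from trimmed reads aligned to CamDro2 and counted with featureCounts, paired and reverse-stranded, on Ensembl gene models; STAR is named in the methods and Rsubread in the header, so the aligner is not settled. The deposited counts are not normalized.

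The 6 groups and camel numbers come from the labels. Genes were kept with filterByExpr (minimum count 10, minimum total 15), scaled by TMM and fitted in edgeR 4.0.16 (R 4.3.3) with all 30 libraries, 6 groups and no covariate; 15376 genes were tested by quasi-likelihood F tests with Benjamini-Hochberg adjustment in each comparison, at 0.05. Log2 CPM used a prior count of 2. Single values were compared by exact permutation over libraries. The fit was tested on simulated data. Alternatives were DESeq2 1.42.0, limma-voom 3.58.1, other scaling, filters, covariate, blocks and each library left out.

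The 3 aquaporins and all lists were chosen with earlier results of these data known. Genes named beside them are the list members called in at least 1 comparison of conditions (at most 6 a list, by adjusted p) and those with the highest r with each aquaporin (5 over 30 libraries, 3 within each tissue). Symbols were taken from the study's lists, since the table carries identifiers alone. The authors' own fold changes and p-values were not used.

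By the labels, cortex and medulla of a camel share its number. In control and dehydrated camels the labels and internal names pair the tissues. In rehydrated camels the internal names of equal numbers differ, so these may be different animals. Deviations from the group mean correlated by 0.139 on average between the tissues of a control camel and 0.0934 of a dehydrated camel. Between equal numbers of rehydrated camels the average was 0.0487.

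Total counts were 12634346 to 20005136 per library. With 5 camels a group, differences between camels set the precision: the biological coefficient of variation was 34.0% over genes, 28.4% for AQP1, 25.3% for AQP2 and 56.5% for AQP3.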

Additional observations from a re-analysis of the deposited data

Results flagged for a closer look

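In 36 groups of 5 values (3 levels and 3 ratios in 6 groups), 2 held a library whose gap to its nearest neighbour was over 0.71 of the range, the critical value for 5; chance gives about 1 in 20. The AQP2 level of dehydrated camel 5 in the cortex, 159 CPM, lay under the next value of 237 CPM (gap ratio 0.765). The log2 ratio of AQP1 over AQP2 in the medulla of control camel 2, 2.29, lay under the next value of 3.21 (gap ratio 0.753).

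AQP2 in rehydrated camels went opposite ways in the tissues. All 5 cortex libraries lay below the mean log2 CPM of control cortex (mean difference -0.57), and all 5 medulla libraries lay above that of control medulla (mean difference 0.57), a gap of 1.15 on the log2 scale. The interaction in edgeR's quasi-likelihood test had an unadjusted p of 0.00146 and an adjusted p of 0.878, so the difference did not pass over all tested genes.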

How the results depend on the processing

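The limit on these results is the spread between 5 camels a group, and for AQP3 in rehydrated cortex also the count, down to 16 reads. The directions of the aquaporin comparisons did not turn under RLE scaling, DESeq2, limma-voom, either other filter, the RNA integrity covariate, a replicate block or a fit of 1 tissue alone. Among comparisons of conditions the calls that changed, with adjusted p, were AQP1 in cortex for dehydration against control with the RNA integrity covariate (0.0898), AQP3 in that comparison with limma-voom (0.0702), and, with DESeq2, AQP1 in cortex for rehydration against control (0.00312), AQP2 in cortex for rehydration against dehydration (0.0312) and AQP2 in medulla for dehydration against control (0.0261). Between tissues the exceptions were AQP1 in dehydrated camels with the RNA integrity covariate (0.220) and AQP2 in control camels with limma-voom (0.0549). A block of the camel, the pairing that the labels give, took that AQP2 difference to 0.0865. Every other aquaporin call between tissues stayed with this block in edgeR, and no aquaporin interaction passed. The adjusted p for AQP1 was then 0.0311 in dehydrated and 0.00265 in rehydrated camels. For rehydrated camels this pairing is in doubt. A block of the replicate number, which is only a name across conditions, changed no aquaporin call, ended the SLC6A6 call in cortex, and the count of pathway genes became 2 in medulla for dehydration against control and 1 for rehydration against control. The cortex correlation of AQP2 and AQP3 was 0.592 with RLE scaling and 0.269 without the 2 farthest libraries, neither of which passed. With DESeq2 the pathway counts for dehydrated against control camels were 9 in cortex and 4 in medulla, for rehydrated against control camels 2 and 1, and for rehydrated against dehydrated camels 7 and 3. The first cortex count was 2 with the RNA integrity covariate and the last was 2 with only cortex libraries. In medulla, dehydration against control gave 2 with limma-voom and 0 with only medulla libraries, and rehydration against dehydration gave 2 with RLE scaling, limma-voom, a mean of 1 CPM or no filter and 3 with only medulla libraries. The cause of these changes was not tested.

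With 1 library left out at a time, adjusted p for dehydration against control in cortex ran from 0.0151 to 0.0737 for AQP1 and from 0.0172 to 0.0523 for AQP3, and for AQP1 in rehydration against control from 0.0201 to 0.183. For AQP2 it ran from 0.0415 to 0.142 in rehydration against dehydration in cortex, from 0.0166 to 0.220 in dehydration against control in medulla and from 0.0148 to 0.174 between the tissues of control camels. Log2 differences near 0 turned sign without some libraries, with adjusted p of 0.749 to 0.991 (AQP1, cortex, rehydration against dehydration), 0.819 to 0.994 (AQP1, medulla, dehydration against control), 0.861 to 1.0 (AQP3, cortex, rehydration against control), 0.507 to 0.99968 (AQP3, medulla, rehydration against control) and 0.977 to 0.99999 (AQP3, interaction of rehydration). Adjusted exact p of the ratio of AQP2 over AQP3 ran from 0.0476 to 0.0714 for dehydration against control in cortex, from 0.482 to 0.952 for rehydration against control in cortex, where the sign turned, and from 0.0476 to 0.119 for rehydration against dehydration in medulla. For AQP1 over AQP2 it ran from 0.0357 to 0.0714 in cortex for rehydration against control, from 0.0408 to 0.119 in medulla for either group against control, and from 0.393 to 0.984, with the sign turning, for rehydration against dehydration in medulla. For AQP1 over AQP3 it ran from 0.0476 to 0.0794 (dehydration against control), 0.0357 to 0.121 (rehydration against control) and 0.0357 to 0.0794 (rehydration against dehydration) in cortex and from 0.0408 to 0.119 in medulla for dehydration against control. Pathway counts ran from 1 to 6 and from 1 to 4 in cortex for dehydration against control and rehydration against dehydration, and from 0 to 2 in each medulla comparison.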
